A study of Mus musculus with 4 samples.

Results

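The 10 genes described here encode proteins of the nuclear lamina and the inner nuclear membrane: the lamins Lmna, Lmnb1 and Lmnb2, the lamin B receptor Lbr, the LEM-domain proteins Tmpo, Emd and Lemd3, the LEM-domain binding protein Banf1, and the SUN-domain proteins Sun1 and Sun2. They were taken by symbol from the 47937 gene entries of the deposited counts table, and all 10 were found and passed the filter on low counts. Total RNA was sequenced from mouse embryonic fibroblasts (MEF cells), connective tissue cells grown from mouse embryos. There were 2 libraries of untreated wild-type MEF cells and 2 libraries of MEF cells exposed to 50 µM genistein, a plant isoflavone, for 24 h. Both groups were grown in the same kind of medium with serum. The labels state the wild-type genotype for the untreated libraries, call these untreated or control without naming a vehicle (the study's methods for other assays describe untreated cells as given DMSO alone), and do not say whether the replicates were separate cultures, so the p-values below measure only the spread between these libraries, which may be technical.

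The nuclear lamina is a meshwork of lamin filaments under the inner nuclear membrane. Peripheral heterochromatin is tethered to it through Lbr and the LEM-domain proteins, and the SUN-domain proteins connect it through the membrane to the cytoskeleton. Loss of Lmnb1 and Lbr is a known feature of senescent fibroblasts. The study examined what genistein does to transcription of the major satellite (MSR) repeats of pericentric heterochromatin. Here the same libraries are used to compare transcripts of the lamina and inner membrane genes between exposed and untreated cells.

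The total counts were between 28591958 and 31464284 per library, and the raw counts of the 10 genes lay between 1179 and 21246. On the log2 CPM scale, Pearson's r across genes and repeats was 0.996 within the untreated group, 0.995 within the genistein group and 0.96 to 0.964 across the groups. Of 10 fibroblast markers, 9 passed the filter on low counts, and Thy1 had a count of 0 in every library, which allows up to 3 counts per library. Of the 9, 7 were lower and 1 was higher after genistein, where 38.2% of all tested genes were lower and 33.5% higher. The summed level of the list was 14381 and 14804 CPM without and 13796 and 13476 CPM with genistein. The 14 markers of epithelial, endothelial, blood, muscle and pluripotent cells summed to 4.81 and 4.53 CPM without and 11.4 and 12.1 CPM with genistein, and Cd68 and Kdr rose among them. Of these 14, Epcam, Krt5, Adgre1 and Sox2 were at 0 in all libraries and 8 had fewer than 3 counts in each library. The part of such cells in the results below was not tested.

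Genistein exposure was accompanied by lower transcript levels of 7 of the 10 genes and a higher level of Sun2, while Emd and Sun1 did not pass the test. The decreases were largest for Tmpo, Banf1, Lbr and Lmnb1, which retained 47.6%, 51.4%, 52.3% and 54.0% of their untreated level. Lmnb2 retained 57.5%, Lmna 74.8% and Lemd3 76.3%. In total 8 of the 10 genes had an adjusted p under 0.05 (quasi-likelihood test of edgeR, Benjamini-Hochberg adjusted over 17358 genes and repeats). That threshold was passed by 71.7% of the 16240 tested genes, so the number of members called lies near the background. By direction, 7 of 10 members were lower against 38.2% of all tested genes, and 1 of 10 was higher against 33.5%. The split over all genes and repeats moves with the scaling, from 36.0% lower and 36.2% higher to 32.0% lower and 40.2% higher with library totals, while the members stay at 7 lower and 1 higher. The same 8 members had groups of libraries that did not overlap, as did 85.3% of all tested genes. The median log2 fold change was -0.61 over the 10 members and -0.03 over all tested genes. In bulk RNA, fewer cells expressing a gene and less RNA per cell cannot be told apart.

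**Figure D1:**
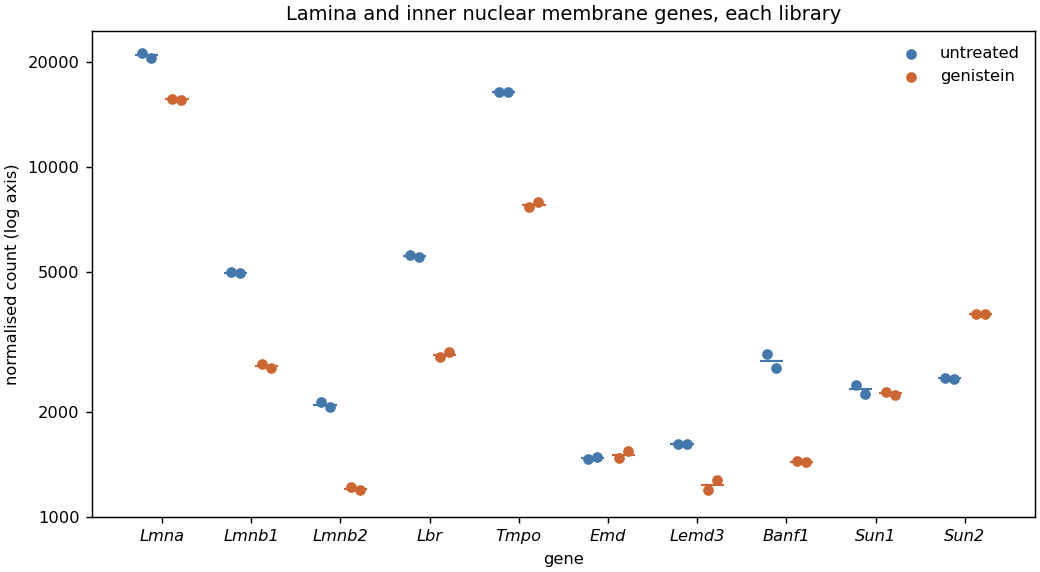
Normalised count (log axis) of each of the 10 genes in every library. Points are libraries, 2 untreated and 2 genistein, and short lines are group means. The groups are separate for 8 genes and overlap for Emd and Sun1.

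The lamins were considered first. Lmna encodes the A-type lamins A and C, which are made from a shared gene by alternative splicing, and the gene counts do not separate them. Its normalised count, the count scaled to the mean effective library size, was 21224 and 20600 without and 15675 and 15609 with genistein. Both genistein libraries were below both untreated libraries. This is a change of -0.42 ± 0.05 (log2 fold change ± SE, adjusted p = 4.9e-07, edgeR).

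Lmnb1 encodes lamin B1, a farnesylated lamin that stays attached to the membrane. Its normalised counts were 5009 and 4976 in untreated cells and 2730 and 2658 after genistein. The groups were well apart, with a standard deviation of 23.3 in the untreated and 50.7 in the genistein libraries (n = 2 each). Lmnb1 changed by -0.89 ± 0.03 (log2 fold change ± SE, adjusted p = 1.1e-12, edgeR). Lmnb2, which encodes the second B-type lamin, had normalised counts of 2129 and 2057 in untreated cells and of 1215 and 1193 after genistein. It changed by -0.80 ± 0.04 (log2 fold change ± SE, adjusted p = 9.4e-11, edgeR). Both B-type lamins decreased by more than the spread between replicates.

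The decrease was smaller for the A-type than for the B-type lamins. The log2 fold change of Lmna was above that of Lmnb1 by 0.47 with a standard error of 0.06 and above that of Lmnb2 by 0.38 with a standard error of 0.06, where the errors of the paired genes were taken as independent. Lmnb1 and Lmnb2 differed from each other by -0.09 with a standard error of 0.06. Per kilobase of exon, the ratio of Lmna to the sum of Lmnb1 and Lmnb2 was 2.599 and 2.56 without and 3.48 and 3.56 with genistein. The mean ratio moved from 2.58 ± 0.03 to 3.52 ± 0.05 (SD, n = 2), an increase of 1.37-fold. An exact two-sided permutation test of 2 against 2 libraries cannot go below p = 0.333, so no test was made of the ratio.

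**Figure D2:**
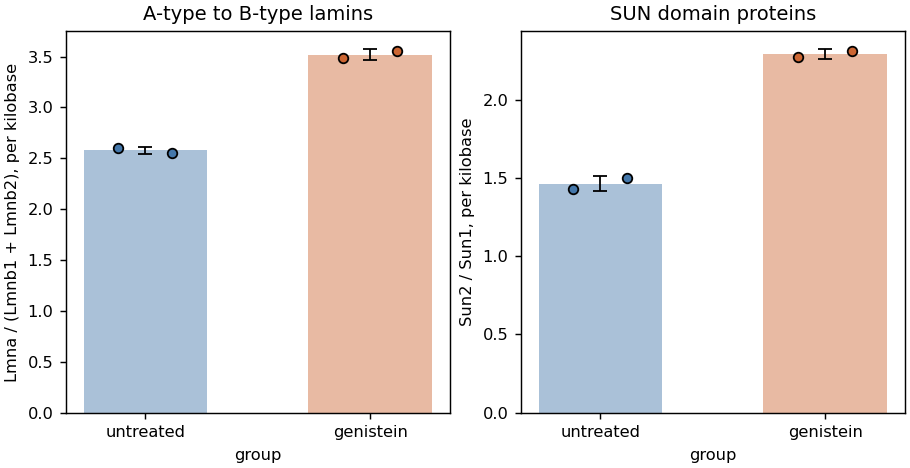
Ratio of A-type to B-type lamin transcripts and of Sun2 to Sun1, each from normalised counts per kilobase of exon. Bars are means, error bars are SD (n = 2) and points are libraries; both ratios were higher in both genistein libraries, with means of 3.52 against 2.58 for the lamins and 2.29 against 1.46 for Sun2 to Sun1.

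Lbr encodes an inner membrane protein that binds B-type lamins and heterochromatin protein 1 and also carries sterol reductase activity. Its normalised counts were 5599 and 5524 in untreated cells and 2861 and 2955 after genistein. The groups did not overlap, and Lbr changed by -0.94 ± 0.03 (log2 fold change ± SE, adjusted p = 6e-13, edgeR). Of its exon length 9.24% is shared with Dnah14 on the opposite strand, which had at most 2 counts in a library. In the ranking of all changes, 7.78% of all tested genes had a log2 fold change below that of Lbr, and 8.73% had one below that of Lmnb1.

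The LEM-domain proteins bind chromatin through Banf1. Tmpo, which encodes the lamina-associated polypeptides 2, had the largest decrease of the 10 genes. Its normalised counts were 16467 and 16407 in untreated cells and 7678 and 7964 after genistein. Both genistein libraries lay far below both untreated libraries, with a change of -1.07 ± 0.05 (log2 fold change ± SE, adjusted p = 4.7e-12, edgeR). The Tmpo isoforms, of which the alpha form is not anchored in the membrane, were counted together. Tmpo was the only member past the thresholds of the study's methods, which besides the adjusted p require a change of more than 1 log2 unit in either direction and a mean normalised count above 100. Those thresholds were passed by 8.08% of all tested genes, 4.16% as lower and 3.92% as higher. Banf1 and Lbr lay close to the cut of 1 log2 unit. The 95% interval was -1.17 to -0.97 for Tmpo, -1.06 to -0.86 for Banf1 and -1.01 to -0.86 for Lbr, so each held the cut. The thresholds were applied here to the edgeR fit, where the study used DESeq2. With DESeq2 the log2 fold changes were -1.10 for Tmpo, -0.98 for Banf1 and -0.96 for Lbr.

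Lemd3 encodes Man1, an inner membrane protein that also binds receptor-regulated SMAD proteins. It had normalised counts of 1612 and 1620 in untreated cells and of 1191 and 1277 after genistein, without overlap. Lemd3 changed by -0.39 ± 0.05 (log2 fold change ± SE, adjusted p = 2.1e-06, edgeR). The third LEM-domain gene, Emd, encodes emerin. Its normalised counts were 1466 and 1479 in untreated cells and 1470 and 1543 after genistein, so its groups overlapped. The log2 fold change of Emd was 0.03 with a 95% interval from -0.07 to 0.13 (adjusted p = 0.54, edgeR). The LEM-domain genes thus differed among themselves, with Tmpo below Emd by 1.10 (standard error 0.06) and below Lemd3 by 0.68 (standard error 0.07) in log2 fold change.

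The Emd value carries a limit of annotation. An annotated transcript of Emd holds 662 bp that match Eif1, a translation initiation factor gene, at 96.7% identity. In the annotation used here, 19 genes share at least 250 bp of sequence with Emd at 90% identity or more. Not all of these have an entry in the deposited counts. The pseudogene Gm14686 also lies on 13.6% of the Emd exon length, on the same strand, and had 20 to 29 raw counts. Reads from such stretches can be divided among the genes that were counted. Eif1 had normalised counts of 2442 and 2525 in untreated cells and of 2718 and 2527 after genistein (0.08 on the log2 scale, adjusted p = 0.097, edgeR).

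Banf1 encodes the barrier-to-autointegration factor, a small DNA-binding protein that cross-bridges chromatin and recruits LEM-domain proteins when the nuclear envelope reforms. Its normalised counts were 2931 and 2665 in untreated cells and 1447 and 1430 after genistein. The untreated libraries had an SD of 188 for Banf1 and still lay above both genistein libraries. Banf1 changed by -0.96 ± 0.05 (log2 fold change ± SE, adjusted p = 2.2e-11, edgeR). Banf1 shares 428 bp of exon sequence, 28.6% of its exon length, with Eif1ad on the opposite strand. Eif1ad fell by 0.94 on the log2 scale (adjusted p = 6.9e-11, edgeR). The library kit keeps strand, but the strand setting of the counting was not stated, so reads of the shared stretch may not be separated.

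The SUN-domain proteins span the inner membrane and pair with the KASH-domain nesprins of the outer membrane to form the LINC complex. Sun2 was the only member that rose. Its normalised counts were 2501 and 2486 in untreated cells and 3801 and 3810 after genistein, with no overlap. Sun2 changed by 0.61 ± 0.03 (log2 fold change ± SE, adjusted p = 1.3e-10, edgeR), or 1.53-fold, and 80.8% of all tested genes had a lower value.

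Its paralog Sun1 had normalised counts of 2375 and 2252 in untreated cells and of 2271 and 2235 after genistein, with overlapping groups. The log2 fold change of Sun1 was -0.04 with a 95% interval from -0.12 to 0.05 (adjusted p = 0.4, edgeR). Its sign turned with the scaling, to 0.031 with library totals and to 0.0052 with factors from genes only. The log2 fold change of Sun2 was above that of Sun1 by 0.65 with a standard error of 0.05. Per kilobase of exon, the ratio of Sun2 to Sun1 was 1.43 and 1.498 in untreated cells and 2.27 and 2.31 after genistein, a comparison chosen after the values of both genes were seen.

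**Figure D3:**
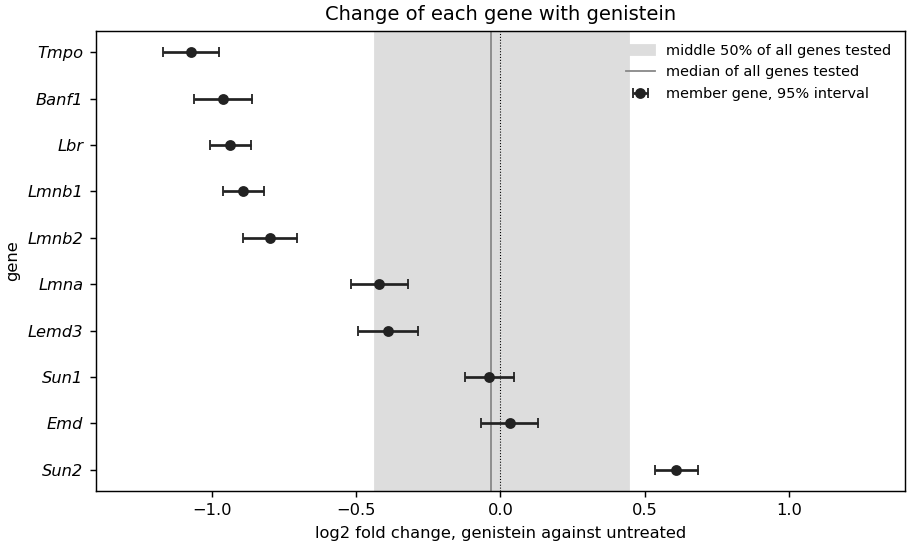
Log2 fold change of each of the 10 genes, genistein against untreated, with its 95% interval from the edgeR fit. The grey band covers the middle 50% of all tested genes, from -0.43 to 0.44; Tmpo, Banf1, Lbr, Lmnb1 and Lmnb2 lie below it and Sun2 above it.

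The levels of the genes were then put in order per kilobase of exon. In untreated cells Lmna was highest, with 5896 ± 124 normalised counts per kilobase (SD, n = 2), and 98.5% of tested protein-coding genes had a lower level. Tmpo followed with 2537 ± 6.57, then Banf1 with 1870 ± 126 and Lmnb1 with 1756 ± 8.18, and the difference between Banf1 and Lmnb1 was within the SD of Banf1. Lbr was at 1404 ± 13.4, Emd at 624 ± 3.75, Sun2 at 603 ± 2.66, Lmnb2 at 531 ± 12.9, Sun1 at 412 ± 15.5 and Lemd3 at 336 ± 1.10.

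After genistein, Lmna was still highest, with 4410 ± 13.1 normalised counts per kilobase (SD, n = 2), and Tmpo was second with 1207 ± 31.2. Sun2 moved from rank 7 to rank 5 of the 10 genes, at 920.2 ± 1.60, close below Lmnb1 at 948 ± 17.8 and Banf1 at 962 ± 7.87. The libraries of Banf1 and Lmnb1 overlapped. Lbr was at 734 ± 16.7, Emd at 638 ± 21.6 and Lemd3 at 257 ± 12.7. Sun1 at 402 ± 4.56 was above Lmnb2 at 306 ± 3.93, in the reverse of their untreated order. Such an order depends on the exon length assumed for each gene.

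Where the genes lie, and the sequence before their start sites, was read from the annotation of the GRCm38 assembly, to which the mm10 build used for alignment corresponds. Tmpo lies on chromosome 10 (91147571 to 91181315), Lmnb2 on chromosome 10 (80901203 to 80918245) and Lemd3 on chromosome 10 (120923413 to 120979332), each on the minus strand. Lbr lies on chromosome 1 (181815335 to 181843046), Lmna on chromosome 3 (88480147 to 88509956), Sun2 on chromosome 15 (79724070 to 79742536) and Banf1 on chromosome 19 (5364638 to 5367168), also on the minus strand. Sun1 lies on chromosome 5 (139200637 to 139249840) and Emd on chromosome X (74254687 to 74261548), on the plus strand. These genes share no common locus, and the position of Lmnb1 is not reported here.

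The 100 bases before a RefSeq start site are shown for the 3 genes that decreased most and for Sun2, the gene that rose, because these are the largest changes among the 10 genes in each direction; they were chosen after the values were seen. Capitals mark the motifs searched on both strands of the window from 250 bases before to 50 bases after the start: CCAAT, bound by NF-Y; TTTGAA, the core of the cell cycle genes homology region (CHR); and TTCCCGCC, a form of the E2F site. They are written 5′ to 3′ in the direction of the gene, all on the minus strand, at chr10:91171620-91171719 for Tmpo, chr19:5366877-5366976 for Banf1, chr1:181842402-181842501 for Lbr and chr15:79742537-79742636 for Sun2.
Tmpo: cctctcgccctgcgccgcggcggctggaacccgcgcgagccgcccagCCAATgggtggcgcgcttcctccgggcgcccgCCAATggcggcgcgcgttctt
Banf1: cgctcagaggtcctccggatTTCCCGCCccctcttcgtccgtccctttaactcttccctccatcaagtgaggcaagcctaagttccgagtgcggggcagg
Lbr: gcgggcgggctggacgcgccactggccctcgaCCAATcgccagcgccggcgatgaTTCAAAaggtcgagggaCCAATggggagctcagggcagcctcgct
Sun2: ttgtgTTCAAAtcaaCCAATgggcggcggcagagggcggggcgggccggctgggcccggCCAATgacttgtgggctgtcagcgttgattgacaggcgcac

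Lbr, which fell, and Sun2, which rose, held the same set of motifs: CCAAT at 2 places and TTTGAA at 1 place on the opposite strand, written above as TTCAAA. In Lbr the CCAAT copies began 68 and 28 bases before the start, and in Sun2 85 and 41 bases before it. The window of Tmpo shown held CCAAT at 2 places, and a second Tmpo start site held TTTGAA and TTCCCGCC at 1 place each. The Banf1 window shown held TTCCCGCC 80 bases and CCAAT 185 bases before the start, and a second Banf1 start site held none of the motifs. Among the other genes that fell, Lmnb2 held none of the motifs in either of its windows. Lmna held none in 1 window and CCAAT at 1 place in another, and Lemd3 held CCAAT at 1 place. Of the genes that did not pass the test, Emd held CCAAT at 1 place. Sun1 held CCAAT at 2 places in 1 window and at 1 place in another. Of all 32851 RefSeq windows of this length, 37.4% held CCAAT, 17.9% TTTGAA and 2.19% TTCCCGCC. A match is a run of letters and was not shown to be a bound site. The windows are from RefSeq on GRCm38.p6. At least 1 was read for 9 of the 10 genes, and the start site of Lmnb1 is not reported here.

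The genes that work with the lamina were compared next, as a list of 24 envelope partners: nesprins, further LEM-domain proteins, torsins and their cofactors, and the enzymes that process lamins. Of these, 23 were tested, 16 were lower, 3 were higher and 4 did not pass, with a median log2 fold change of -0.24. The share called was 82.6% beside 71.7% of all tested genes, and the share lower was 69.6% beside 38.2%. The genes that rose were Syne1 (0.90, adjusted p = 2.4e-09), Narf (0.83, adjusted p = 1.7e-09) and Syne2 (0.74, adjusted p = 2.6e-10, edgeR). Syne1 and Syne2 encode the giant nesprins 1 and 2, the partners of the SUN-domain proteins. The normalised counts of Syne2 were 7829 and 8094 in untreated cells and 13288 and 13293 after genistein, and those of Syne1 were 407 and 435 and then 780.2 and 784. Narf encodes a protein that binds prenylated prelamin A.

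Among the partners that decreased, Rce1 had the largest change, -1.01 ± 0.07 (log2 fold change ± SE, adjusted p = 7.2e-10, edgeR). Rce1 encodes the protease that trims farnesylated CAAX proteins, lamins included, and its normalised counts were 722 and 746 in untreated cells and 362 and 367 after genistein. Fntb, the beta subunit of farnesyltransferase, fell by 0.72 (adjusted p = 9.1e-07, edgeR). Ankle1, a LEM-domain nuclease, fell by 0.95 (adjusted p = 1.5e-07, edgeR).

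Nucleoporins, the building blocks of the nuclear pore, are the other large group of nuclear envelope proteins. Of 31 listed, 30 were tested, 26 were lower and 2 were higher, with a median log2 fold change of -0.60, beside -0.61 for the lamina and inner membrane genes and -0.03 for all tested genes. The share called was 93.3% beside 71.7% of all tested genes, and the share lower was 86.7% beside 38.2%. Nup85, Nup37 and Nup107 belong to the Y-shaped scaffold complex of the pore, and they had the largest decreases, with log2 fold changes of -1.03, -1.02 and -0.92 (largest adjusted p = 4.4e-11, edgeR). Pom121, which anchors the pore in the membrane, and Nup42 rose by 0.36 (adjusted p = 7.6e-05) and 0.31 (adjusted p = 0.0021, edgeR), and Nup42 did not pass with DESeq2 (adjusted p = 0.077). The normalised counts of Pom121 were 1236 and 1279 in untreated cells and 1744 and 1485 after genistein.

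Lmnb1 and Tmpo are known to be expressed more in proliferating cells, and cell cycle genes changed in the same libraries. All 20 listed S phase genes were lower, where 38.2% of all tested genes were, with a median of -0.59. The largest log2 fold changes among them were those of the E-type cyclins, Ccne1 (-1.61, adjusted p = 2.1e-12) and Ccne2 (-1.41, adjusted p = 3.3e-11), and of the licensing factor Cdc6 (-0.79, adjusted p = 5.6e-10, edgeR). Of 20 G2/M genes, 11 were lower, 5 were higher and 4 did not pass, with a median of -0.18. The share called, 80%, is near the 71.7% of all tested genes. Ccna2, Aurkb and Plk1 were among the lower, at -0.79, -0.70 and -0.56, and the spindle genes Nusap1 and Kif20a and the kinetochore gene Cenpf among the higher, at 0.53, 0.32 and 0.22 (largest adjusted p = 0.00018, edgeR). Mki67, the Ki-67 antigen, fell by 0.41 (adjusted p = 6e-07), and Top2a differed by -0.09 (adjusted p = 0.069, edgeR). By FACS, the study found most cells in G2/M and a reduced G1 share after the same dose and time. The part of the cell cycle in the lower lamina transcripts was not tested.

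**Figure D4:**
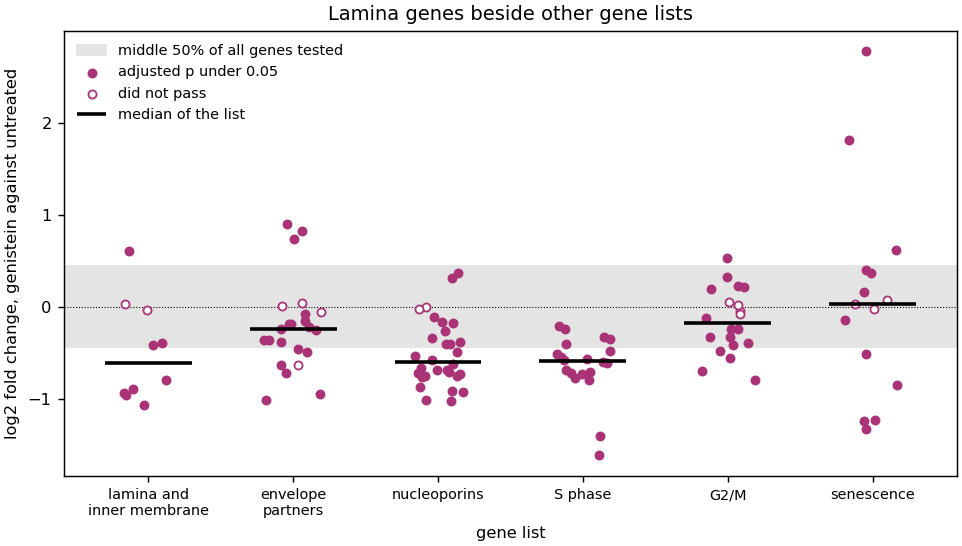
Log2 fold change, genistein against untreated, of each tested gene of 6 lists. Filled points had an adjusted p under 0.05 and open points did not, black lines are list medians (-0.61, -0.24, -0.60, -0.59, -0.18 and 0.03 from left to right), and the grey band is the middle 50% of all tested genes.

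Since low Lmnb1 and Lbr mark senescent cells, other genes linked with senescence were listed as well. Of 16, 15 were tested, of which 6 rose, 6 fell and 3 did not pass, with a median of 0.03. These shares, 40% higher and 40% lower, lie near the 33.5% and 38.2% of all tested genes, so the list did not stand apart by its counts. Cdkn1a, the p21 inhibitor of cyclin-dependent kinases, had normalised counts of 370 and 360 in untreated cells and of 2597 and 2400 after genistein, an increase of 2.78 ± 0.06 (log2 fold change ± SE, adjusted p = 9.1e-16, edgeR). Gdf15, a secreted stress cytokine, rose by 1.81 from low counts (adjusted p = 0.0028), and the matrix metalloproteinase Mmp3 rose by 0.61 (adjusted p = 0.013, edgeR). Neither passed with DESeq2, where the adjusted p was 0.081 for Gdf15 and 0.21 for Mmp3. Gdf15 also did not pass without untreated replicate 1 (adjusted p = 0.054, edgeR), nor Mmp3 without untreated replicate 2 (adjusted p = 0.063) or genistein replicate 2 (adjusted p = 0.098, edgeR). The chromatin protein Hmgb1 had a log2 fold change of -1.23 and the chemokine Cxcl1 one of -1.33 (larger adjusted p = 2.9e-12, edgeR). Cxcl1 is a secreted factor that senescent fibroblasts are known to make more of. Cdkn2a, which encodes p16 and Arf, was at -0.14 (adjusted p = 0.013), a call lost in 5 of the 10 other fits, and Cdkn2b, which encodes p15, was at -0.03 (adjusted p = 0.61, edgeR). The part of these genes in the lamina result was not tested.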

How the data were processed

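Raw counts per gene and repeat subfamily were used as deposited. The authors made them from ribosomal RNA depleted, paired-end total RNA libraries by trimming (Trim Galore), alignment to mm10 (STAR, keeping multi-mapping reads) and counting with TEtranscripts on GENCODE genes. Multi-mapping reads can be divided among copies of a gene, and the strand option of the counting was not stated. The 1 entry without a name, 0.00208% to 0.00314% of counts, was left out. Genes and repeats were fitted together with edgeR 4.0.16 in R 4.3.3 (filterByExpr, TMM, quasi-likelihood test, Benjamini-Hochberg over 17358 entries); normalised counts are counts scaled to the mean effective library size, levels per kilobase use the joined exons of coding transcripts, and standard errors are the log2 fold change divided by the root of F. Symbols, exon lengths and coordinates came from GENCODE M21 on GRCm38 (47310 of 47937 gene identifiers matched). The study counted on an earlier GENCODE release. Shared sequence was found with blastn 2.17.0. The members and lists were chosen with earlier results of these data known. All members were named, and from each other list up to 3 higher and 3 lower genes with the largest changes among those past an adjusted p of 0.05 whose groups did not overlap, besides Cdkn1a, Mki67 and Top2a (1 gene that this rule names is not reported here); Cdkn2a and Cdkn2b were named after their values were seen, as were genes that share sequence with a member. Intervals and limits of a count of 0 cover counting or replicate error of these libraries only. Alternatives covered scaling, filtering, DESeq2 1.42.0, a replicate block, the study's thresholds and leaving out each library.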

Additional observations from a re-analysis of the deposited data

How the results depend on the processing

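The 8 calls among the 10 genes, 7 lower and 1 higher, were made again under each of the 10 other fits, with the scaling, the filter, DESeq2, the replicate block and each library left out. With the study's thresholds 1 of the 10 genes and 1358 of all genes and repeats passed, by construction. Of 100 values of single members under these fits, 97 kept direction and side of the threshold. Sun1 turned to 0.031 with library totals and to 0.0052 with factors from genes only, and Emd to -0.0012 without genistein replicate 2, none of them past the threshold; Emd lay from -0.0012 to 0.072 in the fits that left out a library. The median of the 10 genes was -0.62 with RLE size factors, -0.54 with library totals, -0.56 with factors from genes only, -0.63 with no filter and -0.63 with DESeq2, and from -0.64 to -0.59 without each library, shifts above its small replicate SD of 0.0027. The increase in the ratio of A-type to B-type lamins was 1.39-fold over Lmnb1 alone and 1.30-fold over Lmnb2 alone. With DESeq2, 8 senescence genes were called against 12, or 50% of those with an adjusted p, as the calls over all genes and repeats went from 72.2% to 50.9%. With the replicate block 8 members were called; deviations from the group means had a correlation of -0.03 for libraries that carry the same number, which gives no sign of pairing.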
